A study of Rattus norvegicus with 30 samples.

Results

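Expression of 7 genes of conjugation, the sulfotransferases Sult1e1, Sult1a1, Sult1b1, Sult1c2 and Sult1c3 and the acetyltransferases Nat1 and Nat8, was followed in primary rat hepatocytes under phenobarbital. The rule that picks the probe sets uses gene symbols and no measured value: every probe set annotated to 1 of these symbols alone was taken. The list of genes itself was drawn up with earlier results of these data known. All 7 genes, of 14217 with a probe set of their own, were on the array, with 8 of its 31042 probe sets, 2 of them for Nat1. A further probe set carries Sult1c2 together with RGD1562392, which RefSeq now lists as a synonym of Sult1c2a, so it is described but not counted. RNA came from 30 culture wells, 1 array per well, in 6 groups of 5 wells. Frozen hepatocytes of male Sprague Dawley rats, from a commercial supplier, had been seeded on collagen, overlaid with Matrigel and dosed on the third day of culture. At 24 h after dosing the groups were vehicle, 300 µM phenobarbital and 3000 µM phenobarbital, and the same 3 treatments were harvested at 48 h. The vehicle is called water in 1 label and culture medium in another. The replicates are separate cultures, 1 well each, with no animal or donor named for any of them. The p-values thus measure the spread between wells, which may be technical.

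Sulfotransferases of the SULT families are cytosolic enzymes that move a sulfonate group from the donor PAPS to a hydroxyl or amino group of hormones and drugs, which makes the product more water-soluble and often inactive. Nat1 is likewise cytosolic and acetylates arylamines and hydrazines from acetyl-CoA. Nat8 is an enzyme of the endoplasmic reticulum membrane that acetylates cysteine conjugates, the last step of mercapturate formation from glutathione conjugates, and is grouped here by its reaction and not by its place in the cell. Phenobarbital is a classic inducer of liver drug metabolism that activates the nuclear receptor CAR (Nr1i3), whose best known target in rat liver is Cyp2b1.

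The windows around the start sites of 3 genes are shown because Sult1e1 and Sult1b1 lie in 1 cluster on chromosome 14, with Sult1d1 between them in RefSeq's order, and moved in opposite directions at 3000 µM, while Sult1c2 had the largest rise among the members. Each runs from 250 bases before to 50 bases after the start, 5′ to 3′, from RefSeq's promoter table (build GRCr8), which listed 6 of the 7 genes, Nat1 being the one not listed. The windows are chr14:20701230-20701529 (+ strand) for Sult1e1, chr14:20771667-20771966 (+ strand) for Sult1b1 and chr9:7436731-7437030 (+ strand) for Sult1c2. Capitals mark matches to a set of motifs searched on both strands.
Sult1e1: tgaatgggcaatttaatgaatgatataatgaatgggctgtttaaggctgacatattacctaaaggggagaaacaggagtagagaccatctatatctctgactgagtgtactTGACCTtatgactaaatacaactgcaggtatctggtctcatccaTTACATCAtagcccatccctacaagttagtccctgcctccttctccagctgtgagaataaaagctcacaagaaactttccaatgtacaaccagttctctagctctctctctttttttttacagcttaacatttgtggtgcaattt
Sult1b1: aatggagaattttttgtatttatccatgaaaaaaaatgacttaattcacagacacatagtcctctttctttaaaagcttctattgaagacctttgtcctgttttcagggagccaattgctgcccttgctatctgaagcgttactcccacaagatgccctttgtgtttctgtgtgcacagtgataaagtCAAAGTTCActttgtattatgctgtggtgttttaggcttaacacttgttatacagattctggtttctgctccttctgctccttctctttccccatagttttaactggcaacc
Sult1c2: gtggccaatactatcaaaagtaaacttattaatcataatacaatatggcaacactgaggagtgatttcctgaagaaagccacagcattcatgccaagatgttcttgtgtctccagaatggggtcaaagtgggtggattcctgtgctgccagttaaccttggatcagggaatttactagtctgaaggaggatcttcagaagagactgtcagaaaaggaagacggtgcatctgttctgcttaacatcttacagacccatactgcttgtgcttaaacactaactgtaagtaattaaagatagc

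The motifs were the nuclear receptor half-sites AGGTCA and AGTTCA, their direct repeat with 4 bases between them (DR4), the HNF4 site CAAAGTNCA, the HNF1 half-site GTTAAT, the STAT site TTCNNNGAA, the C/EBP-ATF site TGATGNAA and the TATA box TATAAA. In the Sult1e1 window AGGTCA was matched on the opposite strand, read here as TGACCT, 139 bases upstream of the start, and AGGTCA is held by 16.2% of all 33469 windows in the table. TGATGNAA was matched on the opposite strand 95 bases upstream, and 3.98% of all windows hold it. In the Sult1b1 window the HNF4 site, held by 1.24% of all windows, began 62 bases upstream and overlaps a match to AGTTCA, held by 14.5%. The Sult1c2 window held none of the 8 motifs, as did those of Sult1a1 and Sult1c3. Nat8 had a TATA box 30 bases upstream, in 14.2% of all windows. The DR4 repeat (0.0568% of windows), GTTAAT (7.45%) and TTCNNNGAA (8.87%) were matched in none of the 6 windows. A match is a description of letters and was not tested as a binding site.

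Signals are given as log2 of the deposited signal. A probe set was tested where its highest group mean reached 8.58, the median of all values, which 16596 probe sets did, all 8 members included. "Rose", "fell", "higher" and "lower" are used where limma's adjusted p was under 0.05. Array medians ran between 348.7 and 424.9 on the linear scale, and arrays of 1 group correlated at 0.951 to 0.981. In the hybridisation controls array 4 at 3000 µM and 48 h (mean log2 signal 14.57) and array 1 of vehicle at 24 h (14.14) stood apart from the other 28 arrays, on which this mean was at most 13.35. Results that change without these 2 arrays are marked. As a check of the treatment, a probe set that Cyp2b1 shares with Cyp2b2 was higher at 300 µM by 4.61 at 24 h and 3.71 at 48 h on the log2 scale. At 3000 µM it was higher by 1.17 at 24 h and differed by 0.12 at 48 h (adjusted p = 0.706), or by -0.24 without array 1 of the 3000 µM wells (adjusted p = 0.144). Cyp3a2, a second classic target, was higher at both doses and times, by 0.64 to 1.32. Of the markers of the labelled cell type, 9 of 9 on the array (Alb, Ttr, Apob and others) were above the filter level in every group. Of these 9, 6 fell at 3000 µM at 24 h and 4 fell at 48 h, beside 14.8% and 19.9% of all probe sets tested. None rose, and 3 and 5 were not called. Fgb was lower by 0.55 and 0.53 and Apob by 0.47 and 0.89 on the log2 scale at 24 h and 48 h. The median change of the 9 was -0.27 at 24 h and 0.09 at 48 h. At 24 h their summed log2 signal ran from 18.67 to 18.78 at 3000 µM, below all vehicle wells (18.90 to 19.30), and at 48 h from 18.57 to 19.33 at 3000 µM, around the vehicle wells (18.74 to 18.96). At most 1 of 7 endothelial, 1 of 5 cholangiocyte (Epcam) and 0 of 4 lymphocyte markers reached the filter level in any group, the rest being dim. Of 9 stellate and fibroblast markers 3 to 5 reached it. Their summed log2 signal ran from 11.30 to 11.71 at 3000 µM and from 11.70 to 12.02 in vehicle wells at 24 h. The 48 h ranges were 11.62 to 11.89 and 11.78 to 12.07. Of 5 stellate and fibroblast markers tested, 0 were called at 3000 µM against vehicle at either time. Epcam was not dim: log2 of the summed cholangiocyte signal, where it alone reached the filter level, ran from 13.02 to 13.60. Epcam was lower by 0.14 at 3000 µM at 48 h, was not called at 24 h, and in vehicle wells was higher by 0.28 at 48 h than at 24 h. Of 8 macrophage markers 4 or 5 reached the filter level, led by Cd14, whose group means ran from 13.38 to 13.87. The summed log2 signal of the macrophage list at 24 h ran from 13.93 to 14.03 at 3000 µM, below all vehicle wells (14.08 to 14.18). At 48 h it ran from 13.75 to 13.95 at 3000 µM and from 13.63 to 13.76 in vehicle wells, where the groups just overlapped. Of 5 macrophage markers tested at 3000 µM, Cd68 was higher by 0.54 at 24 h and 0.80 at 48 h, and C1qa and Cd14 were lower by 0.81 and 0.16 at 24 h, with no other calls. Ptprc and Adgre1 stayed below the filter level. No marker was at 0, and the part of these cells in the members' changes was not tested. In such bulk RNA, fewer cells of a type and less RNA per cell cannot be told apart.

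At 3000 µM the 7 genes moved in both directions. Sult1e1, the estrogen sulfotransferase, and Sult1c2 rose, and the phenol sulfotransferases Sult1a1 and Sult1b1, both Nat1 probe sets and Nat8 fell. At 24 h 7 of the 8 member probe sets were called, 2 higher and 5 lower, where 32% of all probe sets tested were called (17.3% higher, 14.8% lower). At 48 h all 8 were, 2 higher and 6 lower, against 39.4% of all (19.5% higher, 19.9% lower). Of the 6 lower, Sult1c3 reached the filter level only in vehicle wells and at 300 µM, 24 h, and averaged 6.86 at 3000 µM, 48 h. It was tested only through groups where it is high, so its fall adds no support to these counts. The median change of the 8 was -0.50 at 24 h and -0.72 at 48 h on the log2 scale, beside 0.01 and -0.00080 over all probe sets tested. Nat1 enters this median with 2 probe sets. With 1 probe set per gene, as in the related lists below, the median of the 7 genes was -0.48 at 24 h and -0.57 at 48 h. At 300 µM, the dose at which Cyp2b1/Cyp2b2 was highest, 2 of 8 were called at each time, 1 higher and 1 lower, beside 2.99% of all at 24 h (1.72% higher, 1.27% lower) and 1.54% at 48 h (0.813% higher, 0.723% lower). These were Sult1e1 (higher) and Sult1a1 (lower) at 24 h, and Sult1e1 (higher) and 1 of the Nat1 probe sets (lower) at 48 h. The member median at 300 µM was -0.05 at 24 h and -0.06 at 48 h, beside 0.0013 and -0.02 over all. With 1 probe set per gene it was 0.01 and -0.03. By that count 1 gene was higher and 0 lower at 48 h, as the Nat1 probe set kept was the one not called. The wells of the compared groups did not overlap for 6 of 8 members at 3000 µM at 24 h, beside 24.5% of all probe sets, and for 8 of 8 (Sult1c3 among them) at 48 h, beside 24.2%. At 300 µM they did not overlap for 3 of 8 at 24 h, beside 5.3% of all, and for 3 of 8 at 48 h, beside 4.84%. The comparisons of 300 µM and of 3000 µM with vehicle share their vehicle wells, so that their agreement is no separate evidence.

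**Figure D1:**
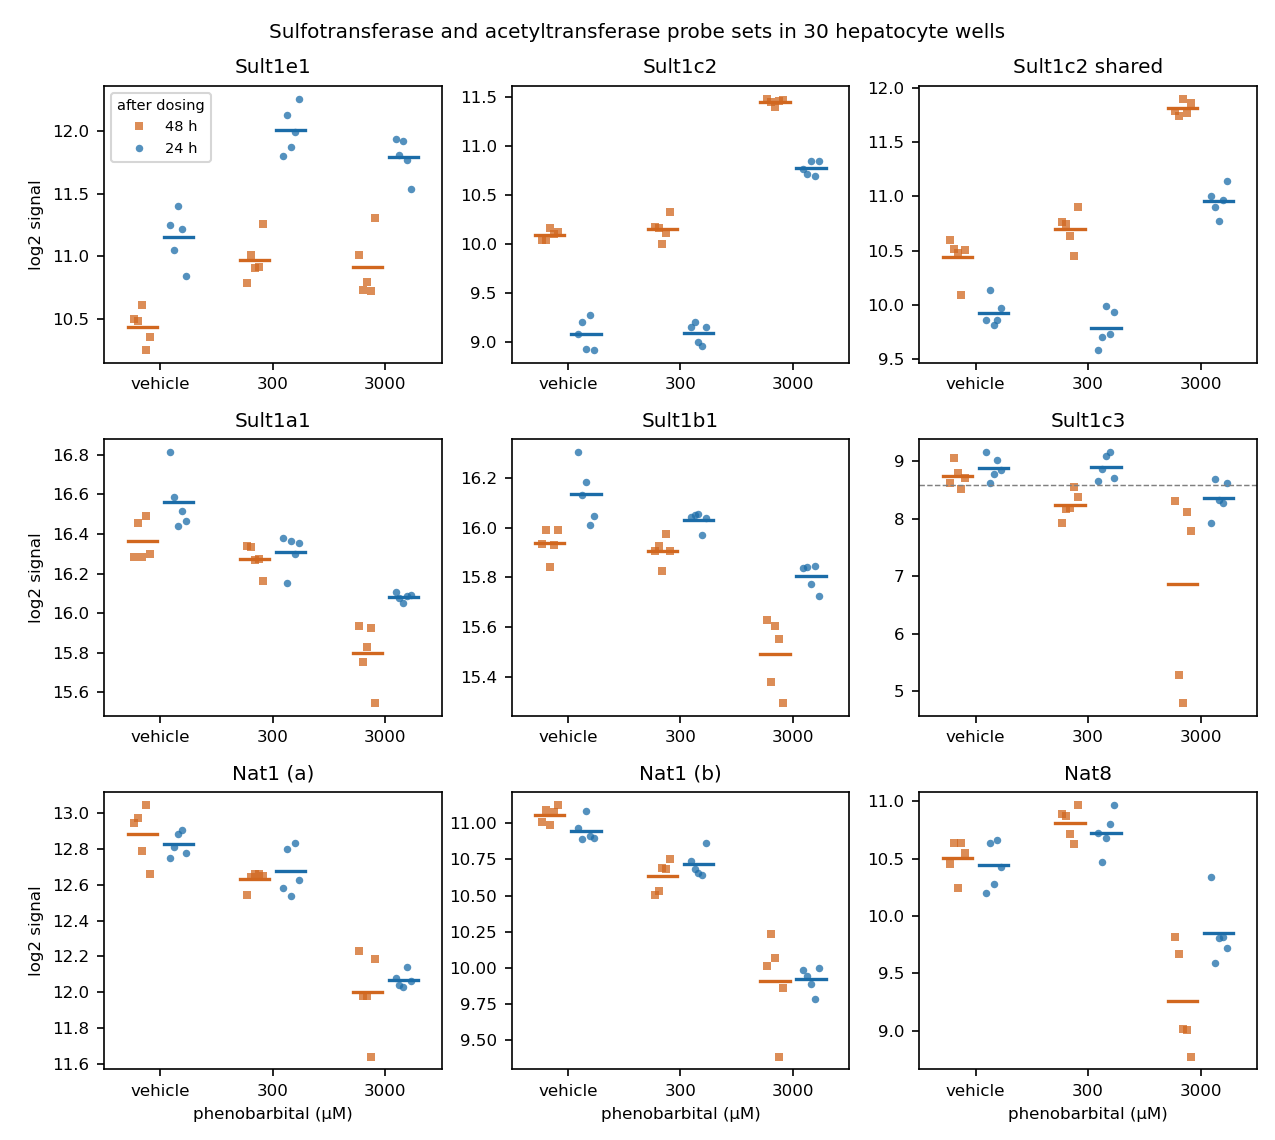
Log2 signal of each member probe set and of the shared Sult1c2 probe set (vertical axis) in each of the 30 wells against phenobarbital dose in µM (horizontal axis), with squares for 48 h, circles for 24 h and a bar for the mean of 5 wells. Nat1 (a) and Nat1 (b) are the 2 Nat1 probe sets, the vertical scale differs between panels, and the dashed line in the Sult1c3 panel is the filter level of 8.58. Sult1e1 lies higher at both doses than in vehicle wells of the same time, Sult1c2 lies higher at 3000 µM, and Sult1a1, Sult1b1, Nat1 and Nat8 have their lowest means at 3000 µM.

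Sult1e1 inactivates estrogens by sulfating their phenolic hydroxyl, and in rats its liver expression is higher in males. Its probe set read 11.25, 11.05, 11.40, 11.22 and 10.84 in the vehicle wells at 24 h. Wells given 300 µM read 11.80, 12.13, 11.87, 11.99 and 12.26. At 3000 µM the signals were 11.94, 11.81, 11.92, 11.77 and 11.54. Every treated well at 24 h was above every vehicle well, and the 2 doses overlapped. Against vehicle Sult1e1 was 1.82-fold higher at 300 µM (log2 change 0.86 ± 0.11 SE, adjusted p = 8.19e-06) and 1.56-fold higher at 3000 µM (0.65 ± 0.11, adjusted p = 3.59e-05). At 48 h the vehicle wells read 10.50, 10.48, 10.61, 10.25 and 10.35. The 300 µM wells of that time read 10.78, 11.01, 10.90, 10.92 and 11.25, and the 3000 µM wells read 11.01, 10.73, 10.79, 10.72 and 11.30. Again all treated wells were above all vehicle wells of the same time and the doses overlapped. The changes were 1.45-fold at 300 µM (0.54, adjusted p = 0.00722) and 1.39-fold at 3000 µM (0.48, adjusted p = 0.00108).

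Between the 2 doses Sult1e1 was not called, with 3000 µM minus 300 µM at -0.22 at 24 h (95% interval -0.45 to 0.02) and -0.06 at 48 h (-0.29 to 0.17). These intervals hold differences of up to about 0.45 on the log2 scale and do not show that the doses act alike. In the vehicle wells Sult1e1 fell with time, averaging 10.44 ± 0.14 at 48 h and 11.15 ± 0.21 at 24 h (SD, n = 5 each; log2 change -0.71, adjusted p = 7.11e-05). In the order of its 6 group means, 300 µM at 24 h stood highest (12.01 ± 0.19) and vehicle at 48 h lowest. The 48 h means at 300 µM (10.97 ± 0.18) and 3000 µM (10.91 ± 0.25) did not separate from each other, and the 300 µM one did not separate from the 24 h vehicle mean. Sult1e1 was thus the member called in the same direction at both doses and both times, and it kept these 4 calls in every alternative processing run, with log2 changes between 0.38 and 0.92.

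Sult1c2 belongs to the SULT1C group, whose members sulfate phenols and hydroxyarylamines. Its own probe set read 9.09, 9.21, 8.94, 9.28 and 8.92 in the 24 h vehicle wells and 9.15, 9.20, 9.01, 8.96 and 9.16 in the 300 µM wells. The 3000 µM wells read 10.76, 10.71, 10.85, 10.70 and 10.84. The higher dose stood clear of both other groups, which overlapped. At 48 h vehicle wells read 10.04, 10.04, 10.17, 10.10 and 10.13. Wells at 300 µM and 48 h read 10.18, 10.16, 10.003, 10.11 and 10.33, and wells at 3000 µM read 11.48, 11.44, 11.40, 11.46 and 11.47. The same separation held, from a higher vehicle level. Sult1c2 was 3.22-fold higher at 3000 µM at 24 h (log2 change 1.69 ± 0.08 SE, adjusted p = 2.03e-16) and 2.56-fold higher at 48 h (1.35 ± 0.08, adjusted p = 1.29e-14). At 300 µM its change was 0.01 at 24 h (95% interval -0.16 to 0.18) and 0.06 at 48 h (-0.11 to 0.23), neither called.

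In vehicle wells alone Sult1c2 was higher at 48 h, at 10.10 ± 0.06 against 9.09 ± 0.16 at 24 h (SD, n = 5 each), a 2.02-fold difference (log2 change 1.01, adjusted p = 2.04e-10). The 3000 µM wells of 24 h (10.77 ± 0.07) were nonetheless above the vehicle wells of 48 h. The change at 3000 µM was smaller at 48 h than at 24 h by 0.33, a difference that missed the test (adjusted p = 0.104). The probe set shared with RGD1562392 moved the same way, higher at 3000 µM by 1.03 at 24 h (adjusted p = 5.94e-10) and 1.37 at 48 h (adjusted p = 4.74e-13). In vehicle wells it averaged 10.44 ± 0.20 at 48 h and 9.93 ± 0.13 at 24 h (adjusted p = 0.000835). The probe set of Sult1c2a alone was instead lower at 3000 µM by 0.54 at 24 h (adjusted p = 0.00393) and by 0.37 at 48 h (adjusted p = 0.0437, and 0.0859 without the 2 arrays that stood apart). The 48 h call is fragile, being lost in 12 of 40 alternatives, among them array weights (adjusted p = 0.129) and centred medians (0.0913). Sult1c2, Sult1c2al1 and Sult1c3 are neighbours on chromosome 9, and how far probes of these related genes read each other's transcripts was not tested.

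Sult1c3 lay near the filter level. At 24 h its probe set lay between 8.62 and 9.15 in vehicle wells, between 8.66 and 9.16 at 300 µM and between 7.93 and 8.70 at 3000 µM. At 48 h it lay between 8.51 and 9.06 in vehicle wells and between 7.93 and 8.55 at 300 µM. The 48 h wells at 3000 µM read 8.30, 5.29, 4.79, 8.12 and 7.79. All of these 5 were below all vehicle wells, but 2 wells stood far under the other 3 and the whole group was below the filter level of 8.58. The log2 change there was -1.88 ± 0.42 (SE, adjusted p = 0.000517), and its size is imprecise at such low signal, running from -2.24 to -1.36 when 1 array at a time was left out. At 3000 µM and 24 h the difference was -0.51 (95% interval -1.37 to 0.35, not called). The difference between 3000 µM and 300 µM at 48 h (-1.38, adjusted p = 0.01) rested on the 2 lowest wells: without array 2 it was -0.99 (adjusted p = 0.053) and without array 3 -0.87 (adjusted p = 0.0568).

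Sult1a1, the main phenol sulfotransferase of liver, also acts on minoxidil and on hydroxyarylamines, which it can turn into DNA-reactive esters. Its probe set read 16.81, 16.58, 16.44, 16.51 and 16.46 in the vehicle wells at 24 h. At 300 µM it read 16.38, 16.15, 16.36, 16.30 and 16.35, and at 3000 µM 16.11, 16.08, 16.05, 16.09 and 16.09. The 3 groups did not overlap and stepped down with dose. The 48 h vehicle wells read 16.29, 16.46, 16.28, 16.49 and 16.30. With 300 µM they read 16.34, 16.33, 16.27, 16.27 and 16.16, and with 3000 µM 15.94, 15.75, 15.83, 15.93 and 15.54. Only the higher dose was clear of the vehicle wells at 48 h. At 3000 µM Sult1a1 was 1.39-fold lower at 24 h (log2 change -0.48 ± 0.07 SE, adjusted p = 6.53e-07) and 1.48-fold lower at 48 h (-0.57 ± 0.07, adjusted p = 1.77e-08).

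The change of Sult1a1 at 300 µM was -0.25 at 24 h (adjusted p = 0.0267) and -0.09 at 48 h (95% interval -0.22 to 0.05, not called). The 24 h call is fragile: without the 2 arrays that stood apart it was -0.19 (adjusted p = 0.0621), and after quantile normalization -0.02 (adjusted p = 0.92). This probe set lies at the top of the array's signal range, with group means at the percentiles 99.6 to 100. After quantile normalization the fall at 3000 µM and 24 h was -0.23 (adjusted p = 0.000124), and the fall at 48 h was -0.61 (adjusted p = 7.39e-13). In vehicle wells Sult1a1 averaged 16.36 ± 0.10 at 48 h and 16.56 ± 0.15 at 24 h (SD, n = 5 each), a difference that missed the test (adjusted p = 0.0616). It passed in 11 of the 41 alternatives run, among them the exact permutation test (p = 0.0397, not adjusted). After quantile normalization the difference was -0.01 (adjusted p = 0.959).

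Sult1b1, which sulfates thyroid hormones and small phenols, moved in the same direction as Sult1a1 at 3000 µM. Its probe set lay between 16.01 and 16.31 in vehicle wells, between 15.97 and 16.06 at 300 µM and between 15.73 and 15.85 at 3000 µM at 24 h. At 48 h it lay between 15.84 and 15.99 in vehicle wells, between 15.83 and 15.97 at 300 µM and between 15.29 and 15.63 at 3000 µM. The 3000 µM wells were below all vehicle wells at both times, whereas the 300 µM wells overlapped them. Sult1b1 was 1.26-fold lower at 3000 µM at 24 h (log2 change -0.33 ± 0.06 SE, adjusted p = 1.46e-05) and 1.36-fold lower at 48 h (-0.45 ± 0.06, adjusted p = 5.35e-08). At 300 µM its change was -0.11 at 24 h (95% interval -0.22 to 0.01) and -0.03 at 48 h (-0.14 to 0.08). It too lies at the top of the signal range (percentiles 99.4 to 99.9), and under quantile normalization its fall at 3000 µM and 24 h was -0.15 (adjusted p = 0.0232). Vehicle wells averaged 15.94 ± 0.06 at 48 h and 16.14 ± 0.12 at 24 h (SD, n = 5 each; log2 change -0.20, adjusted p = 0.0222, but 0.06 without the 2 arrays that stood apart). After quantile normalization this difference was -0.04 (adjusted p = 0.704). The call was also lost with plain eBayes (adjusted p = 0.0519) and without array 1 (0.0939) or 3 (0.0619) of the 24 h vehicle group or array 3 of the 48 h one (0.075).

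Nat1 is read by 2 probe sets. The first, called (a) here, has the identifier ending in _a_at and read 12.75, 12.81, 12.88, 12.91 and 12.78 in vehicle wells at 24 h. In wells with 300 µM it read 12.58, 12.80, 12.54, 12.83 and 12.63, and in wells with 3000 µM 12.08, 12.04, 12.03, 12.14 and 12.06. The higher dose lay well below the others, which overlapped. At 48 h it read 12.95, 12.97, 12.79, 13.05 and 12.66 in vehicle wells. The corresponding signals were 12.55, 12.64, 12.66, 12.66 and 12.65 at 300 µM, and 12.23, 11.98, 11.98, 11.64 and 12.19 at 3000 µM. All wells at 3000 µM were again below all others, and the lowest vehicle well almost touched the highest 300 µM well. Nat1 was 1.69-fold lower at 3000 µM at 24 h (log2 change -0.76 ± 0.08 SE, adjusted p = 5.77e-09) and 1.84-fold lower at 48 h (-0.88 ± 0.08, adjusted p = 1.24e-10). The second probe set, (b), was lower there by 1.03 (adjusted p = 9.21e-10) and 1.15 (adjusted p = 4.69e-11) on the log2 scale.

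At 300 µM the 2 Nat1 probe sets had the same sign but not the same call. At 48 h probe set (b) was lower by 0.43 (adjusted p = 0.0188), and (a) differed by -0.25 (adjusted p = 0.122, and 0.0298 without the 2 arrays that stood apart). The call of (b) was lost after centring array medians (-0.41, adjusted p = 0.109), after quantile normalization (-0.40, adjusted p = 0.053) and without array 1 or 2 of the 300 µM group or array 4 or 5 of the vehicle group (adjusted p = 0.0506 to 0.0621). At 24 h the changes were -0.23 for (b) (adjusted p = 0.263) and -0.15 for (a) (adjusted p = 0.404). Between vehicle wells at 48 h and 24 h neither probe set was called. In RefSeq's annotation Nat1 overlaps Nat2, a second arylamine N-acetyltransferase whose own probe set was lower at 3000 µM by 0.44 at 24 h (adjusted p = 0.00407) and was not called at 48 h (log2 change -0.07). Reads of one gene by probes of the other were not tested.

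Nat8 behaved differently at the 2 doses. Nat8's probe set read 10.20, 10.64, 10.28, 10.66 and 10.43 in the vehicle wells at 24 h. It read 10.72, 10.47, 10.68, 10.80 and 10.97 at 300 µM, and 10.34, 9.59, 9.81, 9.82 and 9.72 at 3000 µM. The 300 µM wells overlapped the vehicle wells from above, and 1 of 5 wells at 3000 µM, array 1, lay within the vehicle range while the other 4 lay below it. In vehicle wells at 48 h the signals were 10.45, 10.63, 10.25, 10.64 and 10.55. They were 10.89, 10.87, 10.71, 10.63 and 10.96 at 300 µM, and 9.82, 9.67, 9.02, 9.01 and 8.78 at 3000 µM. All 3000 µM wells were then below all vehicle wells. Nat8 was 1.50-fold lower at 3000 µM at 24 h (log2 change -0.58 ± 0.15 SE, adjusted p = 0.00357) and 2.37-fold lower at 48 h (-1.25 ± 0.15, adjusted p = 6.13e-08).

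At 300 µM the change of Nat8 was 0.29 at 24 h (95% interval -0.03 to 0.60, adjusted p = 0.41) and 0.31 at 48 h (-0.01 to 0.63, adjusted p = 0.43), neither called. Tested directly, Nat8 was lower at 3000 µM than at 300 µM by 0.87 at 24 h (adjusted p = 5.13e-05) and by 1.56 at 48 h (2.94-fold, adjusted p = 1e-09). Its fall at 3000 µM was larger at 48 h than at 24 h by 0.66, which missed the test (adjusted p = 0.0795) but passed without array 1 of the 3000 µM, 48 h group (0.80, adjusted p = 0.0168) or without array 2 (0.76, adjusted p = 0.0389). Array 1 of the 3000 µM group had the highest Nat8 signal at both times, and also the highest Cyp2b1/Cyp2b2 signal, at 12.34 at 24 h and 12.40 at 48 h, against 11.50 to 11.67 and 10.36 to 10.78 in the other wells of those groups. What sets these wells apart was not tested. In RefSeq's annotation Nat8 overlaps Nat8f5 and lies among other Nat8f genes, and the probe sets of Nat8b, Nat8f1, Nat8f3 and Nat8f5 were all below the filter level.

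**Figure D2:**
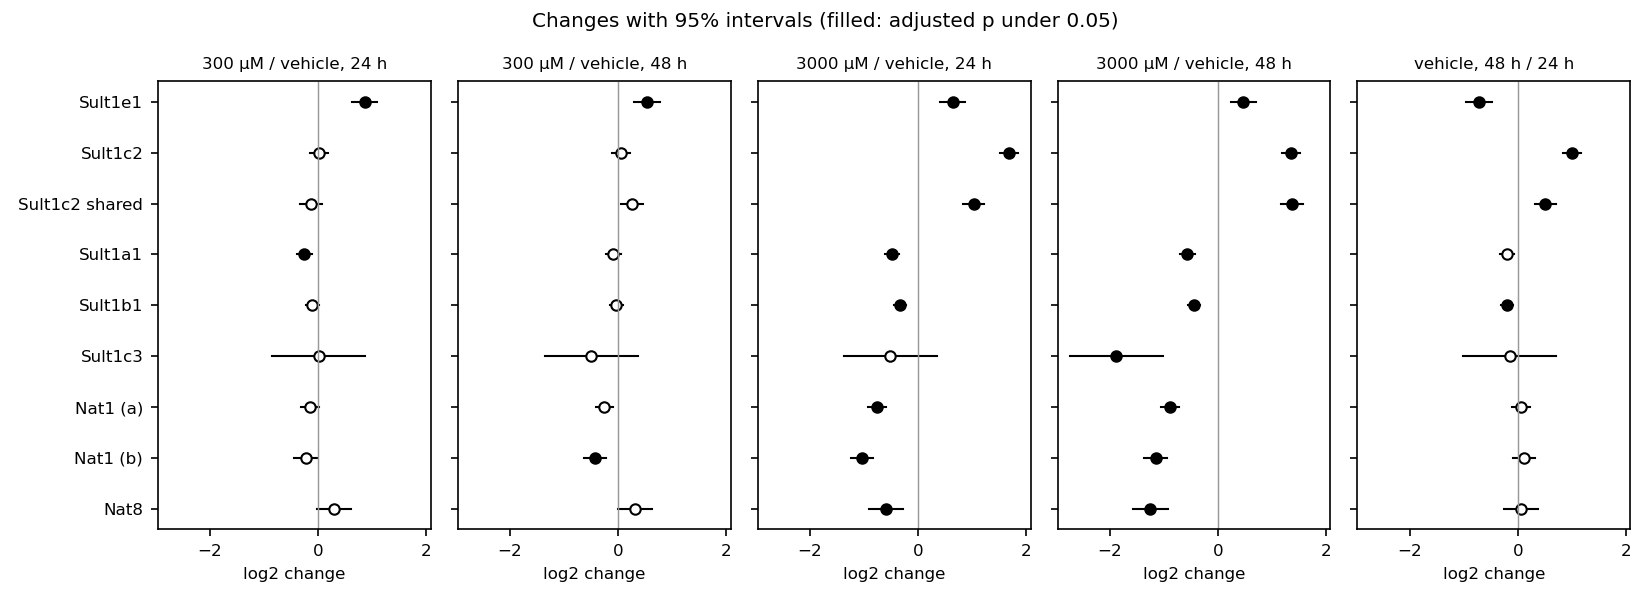
Log2 change (horizontal axis) of each member probe set and of the shared Sult1c2 probe set (rows) in 5 comparisons, with 95% confidence intervals and filled points where limma's adjusted p was under 0.05. Sult1e1 is to the right of 0 in all 4 comparisons with vehicle, Sult1c2 at 3000 µM, and the other genes lie to the left at 3000 µM, with Sult1c3 not called at 24 h.

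The 3000 µM wells were also set against the 300 µM wells. At 24 h 6 of 8 member probe sets were called, 1 higher (Sult1c2) and 5 lower, beside 26.1% of all probe sets (13.9% higher, 12.2% lower). At 48 h 7 were, 1 higher and 6 lower, beside 34.9% (17.9% higher, 16.9% lower). The 6 include Sult1c3, whose means at both doses lay below the filter level at 48 h and whose wells overlapped. It was tested only through other groups, so its call adds no support to this count. The call was also lost in the exact permutation test (p = 0.0714, not adjusted). The wells of the 2 doses did not overlap for 6 of 8 members at each time, beside 22.3% of all at 24 h and 21.3% at 48 h. The member median was -0.38 at 24 h and -0.55 at 48 h, beside 0.0032 and 0.01 over all, and with 1 probe set per gene -0.23 and -0.48. Sult1c2 was 3.20-fold higher at 24 h (log2 change 1.68) and 2.45-fold higher at 48 h (1.29). Sult1a1 was lower by 0.23 at 24 h and 0.48 at 48 h, and Sult1b1 by 0.23 and 0.42. The 24 h differences of Sult1a1 (-0.16, adjusted p = 0.113) and Sult1b1 (-0.16, adjusted p = 0.0904) were no longer called once array medians were centred. Nat1 (a) was lower by 0.61 at 24 h and 0.63 at 48 h.

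With time in vehicle, 3 of 8 member probe sets were called, Sult1c2 higher and Sult1e1 and Sult1b1 lower at 48 h than at 24 h, beside 7.2% of all (4.05% higher, 3.15% lower), and for these 3 the wells did not overlap, beside 8.27% of all. The member median there was -0.04, beside 0.03 over all, and with 1 probe set per gene -0.14. The difference of the 300 µM effect between 48 h and 24 h was called by limma for 0 of 8 members and 0% of all probe sets, and at an unadjusted p under 0.05 for 0 members and 1251 (7.54%) of all. That of the 3000 µM effect was called for 0 of 8 members beside 4.15% of all (1.38% higher, 2.77% lower), and at an unadjusted p under 0.05 for 3 members (Sult1c2, Sult1c3 and Nat8) and 3142 (18.9%) of all.

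Over the 30 arrays Sult1a1 and Sult1b1 had the most alike patterns among the members, with a Pearson r of 0.93 between their log2 signals, and Sult1c2 ran against both (-0.83 and -0.89). Nat1 and Nat8 correlated with Sult1a1 at 0.77 and 0.74. Sult1e1 correlated with no other member beyond -0.26 to 0.23. These coefficients are descriptions: the arrays share 6 treatment groups, and r includes the differences between them. Among 9824 other genes, Sult1e1 was most like Cyp3a2 (r = 0.91), Mnd1 (0.89) and Cyp2c7 (0.86). Sult1c2 was most like Casp4 (0.96), Shc4 (0.96) and Txndc12 (0.96), and Sult1a1 like Chpt1 (0.95), Errfi1 (0.95) and Arg1 (0.94). Closest to Sult1b1 were Apoc2 (0.96), Dpt (0.94) and Eif4ebp3 (0.94), and closest to Nat1 were Nudt7 (0.96), Iyd (0.95) and Decr1 (0.94). Nat8 was most like Fga (0.93), Steap4 (0.92) and Lox (0.92), and Sult1c3 like Rdh7 (0.79), Rnd1 (0.79) and Hrg (0.78).

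Of 12 other sulfotransferases listed, 8 were on the array and 5 passed the filter, while Sult1d1, Sult2a1 and Sult2a2, the last 2 of them hydroxysteroid sulfotransferases, did not. Counts in this and the following lists stand beside the shares of all probe sets. At 3000 µM 32% were called at 24 h (17.3% higher, 14.8% lower) and 39.4% at 48 h (19.5% higher, 19.9% lower). At 300 µM 2.99% and 1.54% were called. A count near these shares says little of a list. At 3000 µM 2 of the 5 sulfotransferases tested fell at 24 h, Sult1c2a and the cholesterol sulfotransferase Sult2b1 (-0.60, adjusted p = 0.0123). At 48 h Sult1c2a (a call lost in 12 of 40 alternatives) and Sult2a6 (-0.54, adjusted p = 0.00707) were lower. For Sult2a6 array 1 of the 3000 µM, 48 h group read 10.87, within the vehicle range of 10.31 to 10.90. The other arrays of that group read 9.58 to 10.22. The Sult2b1 effect differed between the times by 0.95 (adjusted p = 0.037, and 0.0604 without the 2 arrays that stood apart). None of the 5 was called at 300 µM, and none rose. Their median change at 3000 µM was -0.46 at 24 h and -0.21 at 48 h. In vehicle wells Sult2a6 averaged 10.57 ± 0.24 at 48 h and 11.26 ± 0.10 at 24 h (adjusted p = 0.00656).

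Genes that make the donor PAPS, clear its by-product or supply sulfate showed no common direction. Of 13 tested, 3 rose and 3 fell at 3000 µM at 24 h, and 2 rose and 3 fell at 48 h, with medians of -0.03 and -0.05. The PAPS synthase Papss1 was higher by 0.19 at 24 h and 0.29 at 48 h, and the sulfite oxidase Suox was lower by 0.27 at 48 h. Tst, a thiosulfate sulfurtransferase, and the sulfate carrier Slc26a1 were each lower by 0.22 at 24 h. Bpnt2, a phosphatase of the PAPS by-product, was higher at 24 h at 300 µM (0.30, adjusted p = 0.0286, and 0.0724 without the 2 arrays that stood apart) and at 3000 µM (0.50, adjusted p = 8.66e-06), and at 48 h its change at 3000 µM was 0.02. The effect at 3000 µM differed between the times (-0.48, adjusted p = 0.0142). Cdo1, which starts the oxidation of cysteine towards sulfate, was lower at 300 µM at 24 h (-0.33, adjusted p = 0.00426) and higher at 3000 µM at 48 h (0.60, adjusted p = 1.26e-08), where its effect differed from that at 24 h by 0.51 (adjusted p = 0.00266). Ethe1, the mitochondrial persulfide dioxygenase, fell at 3000 µM by 0.40 at 24 h and 0.58 at 48 h. Of 5 sulfatase genes tested, Arsb (0.51) and the sulfatase modifying factor Sumf2 (0.38) rose at 3000 µM at 48 h, and none was called at 24 h or at 300 µM.

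**Figure D3:**
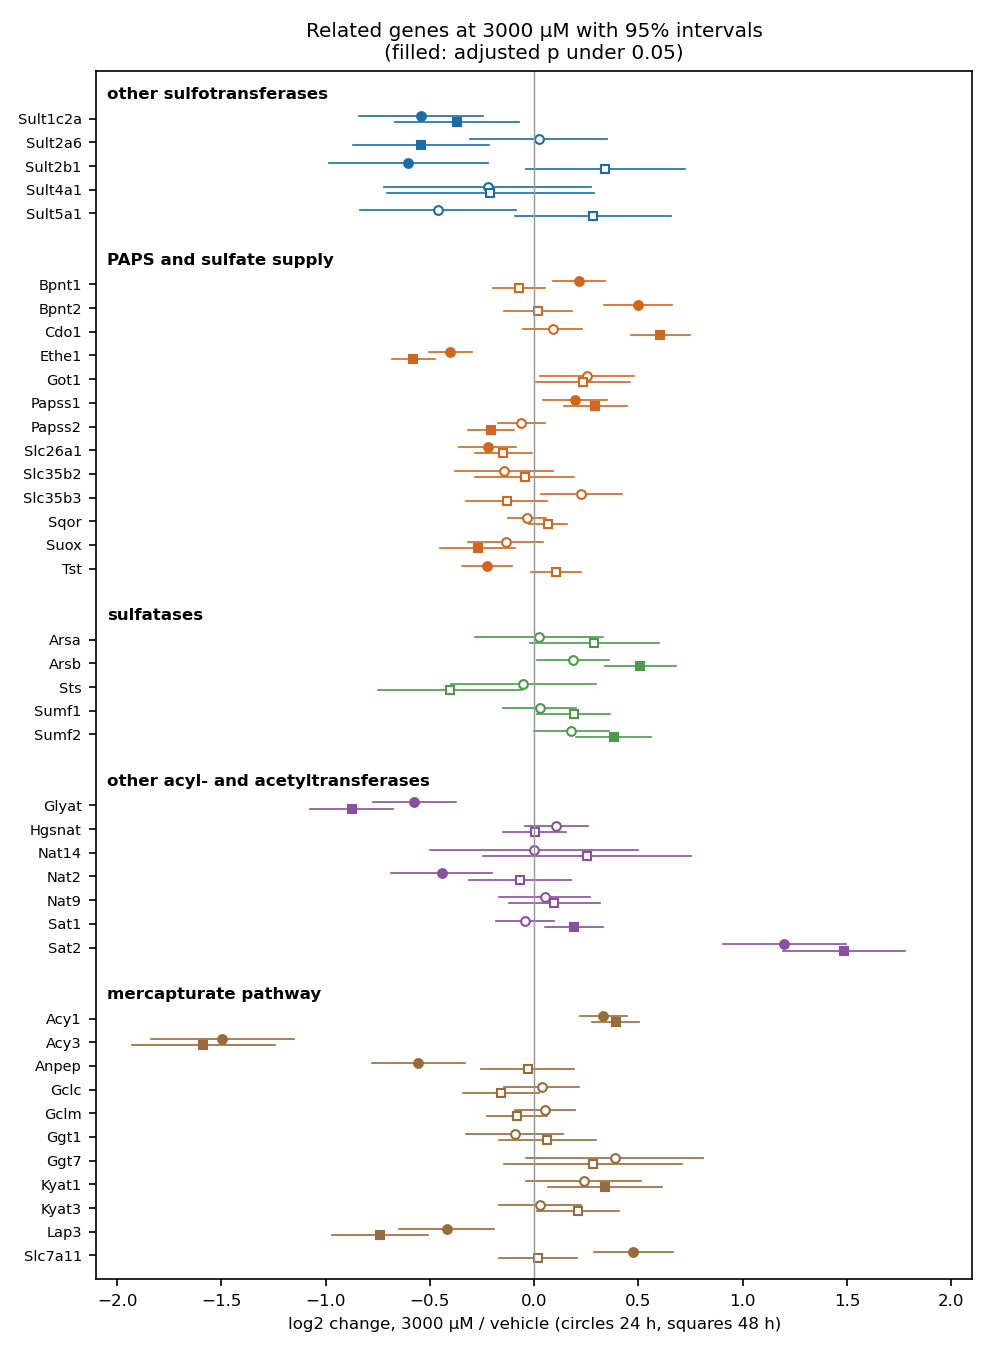
Log2 change at 3000 µM against vehicle (horizontal axis) for tested genes of 5 related lists (rows), with 95% confidence intervals, circles for 24 h, squares for 48 h and filled symbols where limma's adjusted p was under 0.05. Sat2 stands farthest to the right, at 1.20 and 1.49, and Acy3 farthest to the left, at -1.50 and -1.59, at 24 h and 48 h.

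Among 7 other acyl- and acetyltransferases tested, Sat2, named for spermidine/spermine acetylation, rose at 3000 µM to 10.40 ± 0.16 at 24 h, against 9.20 ± 0.19 in vehicle wells (SD, n = 5 each; adjusted p = 5.65e-08). At 48 h it was 11.23 ± 0.29 at 3000 µM and 9.75 ± 0.14 in vehicle wells (adjusted p = 4e-10). Glyat, which joins glycine to acyl-CoAs such as benzoyl-CoA, fell by 0.57 at 24 h and 0.87 at 48 h. Over the list 1 rose and 2 fell at 24 h (Glyat and Nat2), 2 rose (Sat2 and Sat1) and 1 fell at 48 h, and none was called at 300 µM. At 48 h Sat1 averaged 16.05 ± 0.18 at 3000 µM and 15.86 ± 0.07 in vehicle wells. Its array 4 at 3000 µM, 1 of the 2 that stood apart, read 16.37, against 15.93 to 16.03 on the others of that group.

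The list of the mercapturate pathway, which Nat8 closes, also holds genes of cystine import and glutathione synthesis, and 11 of its genes were tested. Of these, 4 rose at 300 µM at 24 h and none fell, with a list median of 0.22. These were Slc7a11, the cystine importer (0.49, adjusted p = 0.00121), both subunits of glutamate-cysteine ligase, Gclc (0.40, adjusted p = 0.00778) and Gclm (0.25, adjusted p = 0.0416), and Kyat3 (0.34, adjusted p = 0.0454, and 0.059 without those 2 arrays). Ggt1, Ggt7, Anpep and Lap3 were not called at 300 µM at 24 h. At 48 h Ggt1, the gamma-glutamyltransferase that starts the breakdown of glutathione conjugates, was the 1 gene higher at 300 µM (0.43, adjusted p = 0.043). At 3000 µM the aminoacylase Acy3, which deacetylates mercapturates, fell by 1.50 at 24 h and 1.59 at 48 h, and Lap3 fell by 0.42 and 0.74. Acy1, a related aminoacylase, rose by 0.33 and 0.39, and Kyat1 rose by 0.34 at 48 h, a call lost without those 2 arrays (adjusted p = 0.131). Anpep fell at 24 h (-0.55) and Slc7a11 rose at 24 h (0.48). In all 2 rose and 3 fell at 24 h, and 2 rose and 2 fell at 48 h.

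Of 11 regulators tested, 7 fell and none rose at 3000 µM at 24 h, and 6 fell and 2 rose at 48 h, with medians of -0.24 and -0.25. Nr1i3, which encodes CAR, averaged 10.12 ± 0.12 at 3000 µM and 11.51 ± 0.11 in vehicle wells at 24 h, and 9.86 ± 0.68 at 3000 µM and 11.18 ± 0.06 in vehicle wells at 48 h (SD, n = 5 each; adjusted p = 1.25e-07 and 2.04e-07). Ghr, the growth hormone receptor, was lower by 0.68 at 24 h and 1.02 at 48 h at 3000 µM, and was the 1 regulator called at 300 µM, at 48 h (-0.50, adjusted p = 0.00046). Nr1h4, the bile acid receptor FXR, fell by 0.90 at 24 h and 0.43 at 48 h, and the difference between the times passed the test (0.48, adjusted p = 0.0425, and 0.103 without the 2 arrays that stood apart). Nr3c1, the glucocorticoid receptor, fell by 0.21 at 24 h and 0.71 at 48 h, the times again differing (-0.50, adjusted p = 0.00235). Nr1i2, the pregnane X receptor, fell by 0.38 at 24 h. Ahr, the dioxin receptor, was higher by 1.25 at 48 h against a vehicle mean below the filter level, so that its size is imprecise. The part of any of these regulators in the members' changes was not tested.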

How the data were processed

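Total RNA from 30 wells was labelled and read on a rat GeneChip array. The authors deposited 1 intensity per probe set and array, on a linear scale, which the submitters' processing notes tie to MAS5 with no version. With 2% trimmed from both tails, the mean intensity was between 1500.6 and 1500.7 on all arrays, so the deposited values had been scaled to a common mean. Values ran from 0.251 to 197200. No detection calls were used here, and the number of arrays limits the precision.

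From there log2 was taken with no constant added, 57 control probe sets were left out, and 16596 of 31042 probe sets were tested, those whose highest group mean reached the median of all values (log2 8.58, signal 383.6). limma 3.58.1 in R 4.3.3 (lmFit, contrasts.fit, eBayes with trend and robust) fitted the 6 group means over all 30 arrays, with 2-sided tests and Benjamini-Hochberg adjustment over all probe sets tested in each of 9 comparisons. SE and 95% intervals come from that fit, and SD is over 5 wells. Symbols come from the platform annotation, updated through RefSeq: 20826 probe sets had 1 symbol, 436 several and 9780 none. All member probe sets are named, and from each related list up to 4 called genes per comparison by size of change, 1 probe set per gene. The 3 most alike genes are those with the highest Pearson r over 30 arrays. The members and lists were chosen with earlier results of these data known. Alternatives were other scalings, filters, an added constant of 50, variance settings, array weights, a block, fewer arrays, leaving out each array, and an exact permutation test.

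On simulated data for 300 µM against vehicle at 24 h, the fit was tested with 50 of 16596 probe sets changed by each size. It recovered 32% of those changed 1.25-fold and 58% of those changed 1.5-fold. The recovery was 90% at 2-fold and 94% at 3-fold, with 7 false calls. A running number in the titles makes sets of 6 wells with 1 of each group. Of 75 pairs of wells with the same set number, 0% had correlated deviations over 0.1, so the sets were not treated as pairs. The correlation ran over all probe sets tested, so a pairing that touches few genes could not show. Array 1 of the 3000 µM groups, of the same set at both times, read highest for Nat8 and for Cyp2b1/Cyp2b2.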

Additional observations from a re-analysis of the deposited data

Results flagged for a closer look

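Of 54 groups of 5 arrays screened, 3 held an array apart from the other 4 by Dixon's test, where chance gives about 1 in 20. For Nat1 probe set (a), array 1 of the 300 µM, 48 h group read 12.55, against 12.64 to 12.66 on the others. For Sult1b1, array 4 of the 300 µM, 24 h group read 15.97, against 16.04 to 16.06. For the shared Sult1c2 probe set, array 4 of the 48 h vehicle group read 10.09, against 10.48 to 10.60.

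By limma's interaction test the 3000 µM effect was called different between 48 h and 24 h for 0 of 8 members. Over all probe sets tested 4.15% were called. At an unadjusted p under 0.05 the members numbered 3, beside 18.9% of all. Of 73 genes tested over the related and marker lists, 8 were called. The effect at 48 h minus that at 24 h was 0.95 for Sult2b1, -0.48 for Bpnt2, 0.33 for Tst and 0.51 for Cdo1 on the log2 scale. It was 0.52 for Anpep, -0.46 for Slc7a11, -0.50 for Nr3c1 and 0.48 for Nr1h4. Adjusted p-values ran from 0.00235 (Nr3c1) to 0.0483 (Anpep). Without the 2 arrays that stood apart, Sult2b1 (adjusted p = 0.0604), Anpep (0.0572), Slc7a11 (0.104) and Nr1h4 (0.103) were not called.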

How the results depend on the processing

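A call here is an adjusted p under 0.05, except in the exact permutation test, whose p was set against 0.05 without adjustment. Of 3293 recomputed values of the member probe sets, 3238 kept direction and call, 26 lost the call, 29 gained one and 0 reversed. Of 26429 for related genes, 25782 kept both, 440 lost and 206 gained a call, and 1 reversed: Sat1 at 3000 µM and 24 h, at 0.16 (adjusted p = 8.86e-06) after quantile normalization. The 24 h call count of members at 300 µM, 2, was 1 with medians centred, after quantile normalization, with plain eBayes, without the 2 arrays apart and with only the groups compared, and at 48 h it was 1 with medians centred or quantile normalization. With medians centred, calls over all probe sets at 300 µM numbered 226 at 24 h (496 as reported) and 124 at 48 h (255 as reported). The 48 h count was 615 with array weights, 469 without the 2 arrays and 495 with only the groups compared. Vehicle at 48 h against 24 h gave 738 with medians centred, against 1195. The difference between times at 300 µM gave 1 call with array weights, 1 without the 2 arrays and 3 with only the groups compared, against 0. At 3000 µM it gave 2 members after quantile normalization (Sult1a1 and Sult1b1) and 1 (Nat8) under the stricter filter, against 0, and 234 of all with medians centred, 362 with no filter and 325 with only the groups compared, against 688. Leaving out each array gave 1 to 2 members and 325 to 750 of all at 300 µM and 24 h, and 1 to 3 and 168 to 458 at 48 h. It gave 2 to 4 members and 840 to 1629 of all for vehicle over time, 0 to 1 of all for the 300 µM difference between times, and 0 to 1 members and 410 to 973 of all for that of 3000 µM. The cause of these changes was not tested. Centring medians turned the split of higher against lower calls to 83 and 41 at 300 µM, 48 h (135 and 120 as reported). It gave 3410 and 1677 at 3000 µM, 24 h (2868 and 2451), 2731 and 1364 for 3000 µM against 300 µM at 24 h (2310 and 2026), 270 and 468 for vehicle over time (672 and 523), and 42 and 192 for the 3000 µM difference between times (229 and 459). With the sets of title numbers as a replicate block, the one member call to change was Sult1a1 in vehicle over time (adjusted p = 0.0457, against 0.0616). The stricter filter gave no value for Sult1c3, which limits what can be said of it at its low signal. The smallest p the exact permutation test of 5 against 5 wells allows is 0.00794.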
